A study of Homo sapiens with 4 samples.

Results

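The 46 genes described here encode the subunits, activators and dedicated assembly factors of the human proteasome. They are the rows, among 50868 in the count files, whose symbol is PSM followed by a letter from A to G and a number, without PSMB8, PSMB9 and the pseudogenes. Their messenger RNA was measured in A549 cells, a human lung adenocarcinoma line, as 2 libraries of control cells and 2 of USP12-overexpressing cells. USP12 is a deubiquitinase. All 4 libraries come from the same line, and the study's methods describe the USP12 coding sequence in a lentiviral pLVX vector. Whether the cells were a clone or a mixed population, and whether replicates were separate cultures, is not given in the sources used here, so the p-values measure only the spread between these libraries. Values are fragments counted per gene and scaled to the library size (CPM, counts for each 1e6 counted) with the TMM factors of edgeR, and 44 of the 46 genes passed its filter on low counts and were tested.

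The proteasome is the protease that degrades most ubiquitin-tagged proteins. Its 20S core is a barrel of stacked rings, in which the outer alpha rings (PSMA genes) gate the entrance and the inner beta rings (PSMB genes) hold the catalytic sites. The 19S cap unfolds the substrate with a ring of ATPases (PSMC genes) and binds and removes ubiquitin chains with its other subunits (PSMD genes). In cells exposed to interferon, PSMB8, PSMB9 and PSMB10 replace the standard catalytic subunits, and the PSME1 and PSME2 cap joins the barrel. When proteasome activity is short, the transcription factor NFE2L1, also called TCF11/NRF1, raises the subunit genes together.

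The promoters of the genes on which the comparisons turn are shown first, since subunit genes are known to be driven together from short promoter elements. Each window runs from 250 bases before to 50 bases after a start site of RefSeq (GRCh38.p14), and motif positions are counted from that start site as 0. PSMB10, PSME1 and PSME2 are the interferon-inducible members, and the capitals mark GAAA, any 2 bases and GAAA, the core of the interferon-stimulated response element, searched on both strands as were all motifs.
PSMB10 (chr16:67936801-67937100, minus strand): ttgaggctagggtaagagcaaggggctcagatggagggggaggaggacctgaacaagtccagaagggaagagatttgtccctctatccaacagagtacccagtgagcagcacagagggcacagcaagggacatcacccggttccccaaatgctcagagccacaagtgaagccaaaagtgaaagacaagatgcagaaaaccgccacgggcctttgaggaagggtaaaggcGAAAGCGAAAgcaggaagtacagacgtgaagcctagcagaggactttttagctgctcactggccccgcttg
PSME1 (chr14:24135944-24136243, plus strand): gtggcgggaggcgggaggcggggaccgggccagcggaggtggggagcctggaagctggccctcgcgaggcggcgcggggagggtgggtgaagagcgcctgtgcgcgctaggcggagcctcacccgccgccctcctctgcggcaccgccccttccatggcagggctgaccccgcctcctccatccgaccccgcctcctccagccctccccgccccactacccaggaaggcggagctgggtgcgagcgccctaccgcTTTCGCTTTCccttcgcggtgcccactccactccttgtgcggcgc
PSME2 (chr14:24146561-24146860, minus strand): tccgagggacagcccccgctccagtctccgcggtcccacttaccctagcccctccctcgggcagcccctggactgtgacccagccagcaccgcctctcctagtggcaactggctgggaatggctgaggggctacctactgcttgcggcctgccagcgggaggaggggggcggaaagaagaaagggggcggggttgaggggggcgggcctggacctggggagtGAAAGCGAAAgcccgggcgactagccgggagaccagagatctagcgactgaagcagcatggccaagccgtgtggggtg
PSMC4 and PSME3 were the members with the smallest p-values. In PSMC4 the capitals mark TGACNNNGC, the core of the antioxidant response element that NFE2L1 binds, on the opposite strand, from 27 to 35. In PSME3 they mark TTCNNNGAA, the core of the gamma-activated site, which reads the same on both strands. The RefSeq start used for PSME3 lies downstream of the first annotated start of the gene. Other motif matches in these windows are not marked, among them TTCNNNGAA in PSMC4.
PSMC4 (chr19:39970915-39971214, plus strand): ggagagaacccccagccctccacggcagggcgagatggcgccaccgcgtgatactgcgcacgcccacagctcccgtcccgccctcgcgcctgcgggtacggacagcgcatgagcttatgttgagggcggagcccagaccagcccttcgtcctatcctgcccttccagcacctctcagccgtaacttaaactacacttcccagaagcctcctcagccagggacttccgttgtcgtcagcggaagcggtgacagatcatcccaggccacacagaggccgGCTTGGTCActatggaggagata
PSME3 (chr17:42833147-42833446, plus strand): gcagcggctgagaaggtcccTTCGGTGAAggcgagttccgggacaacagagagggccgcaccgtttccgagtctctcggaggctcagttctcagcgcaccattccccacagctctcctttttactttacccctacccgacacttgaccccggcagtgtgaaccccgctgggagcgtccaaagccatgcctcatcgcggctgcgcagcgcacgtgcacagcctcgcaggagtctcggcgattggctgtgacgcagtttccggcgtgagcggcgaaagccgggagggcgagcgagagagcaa
The interferon-response match lay from -21 to -12 in PSMB10, from 5 to 14 in PSME1 and from -28 to -19 in PSME2. Of the 40 genes of the family found in the promoter table, 6 (15.0%) held that motif in any window, against 4.38% of all 27305 genes, and the other three were PSMA4, PSMB4 and PSMG4. TGACNNNGC was found in 14 of 40 genes (35.0%, against 16.1% of all genes), the nuclear respiratory factor motif, GCGCA, any base and GCGC, in 5 (12.5%, against 6.98%) and TTCNNNGAA in 7 (17.5%, against 9.38%). The loose NF-κB core, GGG, any 5 bases and CC, was present in 31 of 40 genes (77.5%, against 61.7%), and CCAAT in 19 (47.5%, against 39.7%). The holders of TGACNNNGC went in both directions with USP12, for example PSMG1 (log2 fold change 0.58) and PSMD9 (-0.45). A match is a description of the letters and not of binding. PSMA7, PSMB1, PSMB6, PSMB7, PSMD4 and PSMG3 had no entry.

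The libraries held between 14280081 and 16305356 counts, and 3 counts, taken as the floor, equal 0.166 to 0.227 CPM, a limit that covers counting error only. USP12 itself had 15.2 and 34.4 CPM in control cells, against 1745 and 2235 CPM in USP12-overexpressing cells, matching the labels. Epithelial and A549 markers, among them KRT8, KRT18 and ALDH1A1, summed to 14931 and 11985 CPM in control and 10811 and 10356 CPM in USP12 cells. KRT8 was lower in both USP12 libraries (6075 and 3337 CPM in control, 2747 and 2515 CPM in USP12 cells), as were KRT18, KRT19 and EPCAM. ALDH1A1 (3031 and 4285 CPM against 4083 and 3862 CPM) and AKR1B10 lay between the control libraries. CDH1 had 130 and 99.1 CPM in control and 76.5 and 134 CPM in USP12 cells, so its USP12 libraries lay on either side of the control libraries. The alveolar surfactant genes SFTPA1, SFTPB and SFTPC had at most 1 count, and NKX2-1 at most 5. The leukocyte gene PTPRC had at most 1 count, and CD3E had 0, whereas CD68 had 46.8 to 79.0 CPM. The 4 fibroblast and endothelial markers summed to between 11.03 and 31.6 CPM. Of these, CDH5 and PECAM1 were lower in both USP12 libraries (CDH5 10.3 and 5.32 CPM in control, 0.144 and 0.346 CPM in USP12 cells), while COL1A1 had 13.01 and 2.60 CPM in control and 18.9 and 14.6 CPM in USP12 cells. The part of these markers in the results was not tested. The 2 control libraries stood apart from each other. Over all 15222 genes tested, the log2 difference had an SD of 1.32 within the control pair and 0.62 within the USP12 pair. The column heading of control replicate 1 also begins with another number than the other headings, and what that number marks cannot be told apart from the library itself.

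No member passed an adjusted p under 0.05, with 0 lower and 0 higher in USP12 cells (edgeR's quasi-likelihood test, Benjamini-Hochberg over 15222 genes). No gene at all did (0% lower, 0% higher), whereas DESeq2's Wald test called 277 genes lower (1.86%) and 133 higher (0.891%), and edgeR's exact test 262 (1.72%) and 167 (1.1%). With no low-count filter the quasi-likelihood test called 1.46% lower and 0.673% higher. Among the members, PSME3 was called higher by DESeq2's Wald test and without the filter, and the exact test called 0. The unfiltered fit did not use the spread of single genes. Without control replicate 2, edgeR's quasi-likelihood test called 9 of 44 members lower (20.5%, against 16.3% of all genes) and 7 higher (15.9%, against 15.9% of all genes), shares near the background. Without control replicate 1 it called 0 of 44 in either direction, against 5.74% of all genes lower and 4.73% higher. At an unadjusted p under 0.05, 1 member was lower, PSMC4, and 1 was higher, PSME3. Together they are 4.55% of the 44 tested, against 7.59% of all genes (4.55% lower and 3.04% higher). The median log2 fold change of the members was -0.13, beside -0.06 for all genes tested, and 25 members had a lower and 19 a higher estimate. PSME3 was the single member with a log2 fold change of 1 or more in size, a size that 17.1% of all genes reached. The SD of the fold changes was 0.47 across members and 1.07 across all genes. The USP12 libraries were both below the control libraries in 8 members (17% of all genes) and both above in 7 (19.5% of all genes), so that 15 of 44, or 34.1%, did not overlap, beside 36.5% of all genes. That split depended on the scaling, which was compared after seeing the data. With total counts 13 members were below (19.9% of all genes) and 3 above (16.2% of all genes), the latter being PSMD6, PSMD11 and PSME3. In bulk RNA, fewer cells of a kind and less RNA per cell cannot be told apart. The smallest p of an exact two-sided permutation test on a single gene is 0.333 at this size.

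**Figure D1:**
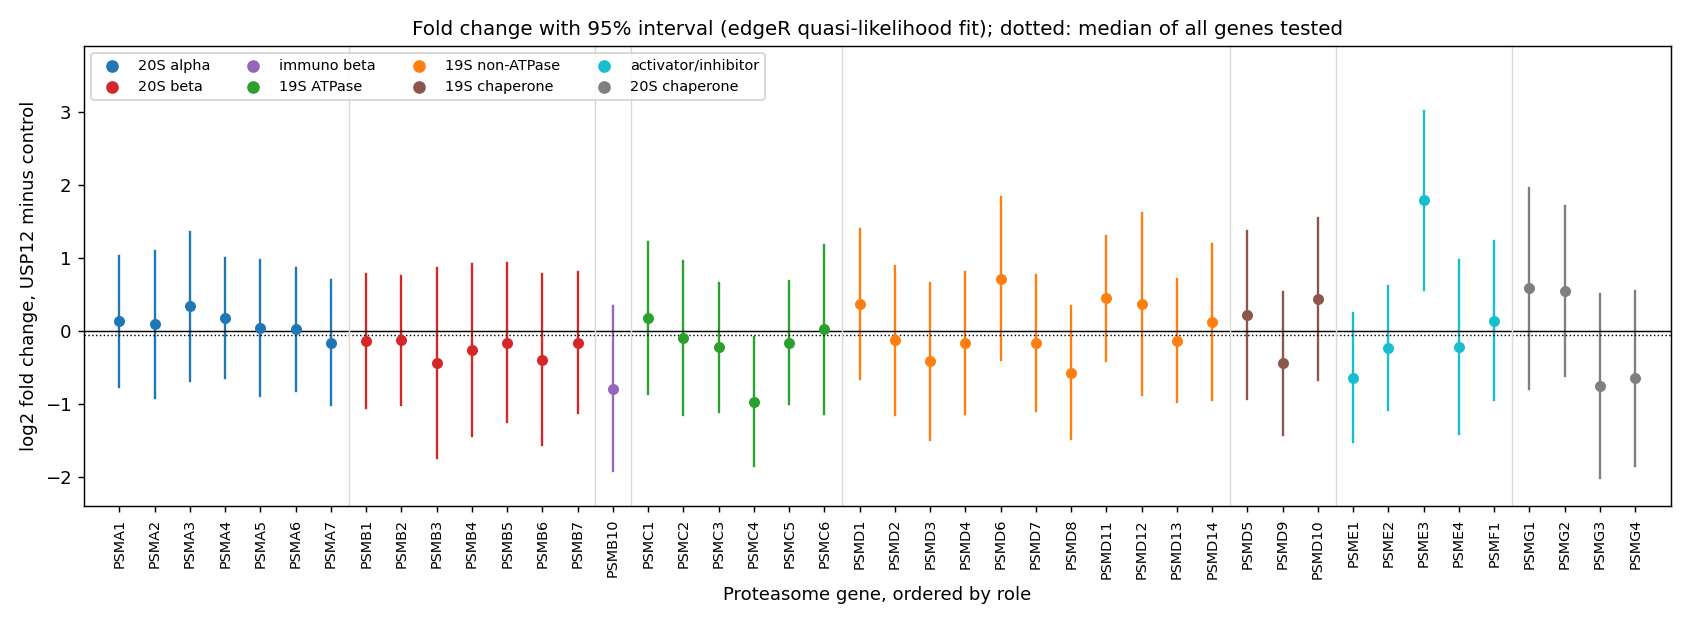
Log2 fold change of each tested proteasome gene, USP12 minus control, on the vertical axis, with genes ordered and coloured by role on the horizontal axis; points are estimates of edgeR's quasi-likelihood fit (2 libraries per group), bars their 95% intervals, and the dotted line the median of all 15222 genes (-0.06). The intervals of PSMC4 (-0.97) and PSME3 (1.79) do not reach 0, and those of the other 42 genes do.

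The width of the intervals limits these statements. The 95% interval of the fold change lay within a log2 of 1 in either direction in 3 members, PSMA5, PSMA6 and PSMD13. For the other members a change of 2-fold in at least one direction was within the interval, and the median standard error of a log2 fold change was 0.42. The summed level of all 46 genes was 5489 and 3927 CPM in control replicates 1 and 2, and 4385 and 3963 CPM in USP12 replicates 1 and 2. Control replicate 1 was the highest of the 4, and both USP12 libraries lay between the control libraries on this scale. Scaled to total counts the sums were 5068 and 4346 CPM in control and 4221 and 4007 CPM in USP12 cells, with both USP12 libraries below. With DESeq2's size factors USP12 replicate 2 (3921) was just below control replicate 2 (3929).

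The alpha ring differed little between libraries. Its 7 tested genes, PSMA1 to PSMA7, summed to 491 and 474 CPM in control cells, and to 533 and 468 CPM with USP12. Their log2 fold changes ranged from -0.16 (PSMA7) to 0.33 (PSMA3), with a median of 0.09. PSMA3 had 19.7 and 23.4 CPM in control and 30.2 and 24.2 CPM in USP12 cells. PSMA4 had 106 and 108 CPM in control and 127 and 115 CPM in USP12 cells. In these 2 genes both USP12 libraries were above both control libraries, by margins smaller than the gap between the USP12 libraries and not when scaled to total counts, and neither passed the test (adjusted p = 0.946 and 0.967 by edgeR's quasi-likelihood test). PSMA8, the testis form of an alpha subunit, had 0 counts in each library, which allows at most 0.227 CPM in any of them.

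All 7 genes of the standard beta ring, PSMB1 to PSMB7, shared 1 order of libraries. Control replicate 1 was the highest, control replicate 2 the lowest, and both USP12 libraries lay between them. Over all genes tested, the USP12 libraries fell between the control libraries in 36.7%, and over the 44 members in 18 genes (40.9%). With DESeq2's size factors all 7 genes of the ring kept this position. With total counts 5 did, PSMB2 was below both control libraries, and USP12 replicate 2 fell below control replicate 2 in PSMB1. The ring summed to 1218 and 613 CPM in control cells, and to 819 and 727 CPM with USP12. PSMB5, which carries the chymotrypsin-like activity targeted by bortezomib, had 143 and 69.5 CPM in control and 97.5 and 92.8 CPM in USP12 cells. PSMB6, the caspase-like subunit, had 126 and 55.5 CPM in control and 72.6 and 65.2 CPM in USP12 cells. PSMB7, the trypsin-like subunit, had 186 and 111 CPM in control and 140 and 125 CPM in USP12 cells. The spread of the USP12 pair was thus far narrower than that of the control pair in each catalytic subunit.
Log2 fold changes of the ring ranged from -0.44 (PSMB3) to -0.13 (PSMB2), with a median of -0.16. They were -0.16 (95% interval -1.25 to 0.93) for PSMB5, -0.39 (-1.56 to 0.78) for PSMB6 and -0.16 (-1.13 to 0.80) for PSMB7. Their direction rested on control replicate 1. Without it, the values were 0.45, 0.31 and 0.26, and the ring median was 0.31. Without control replicate 2 the ring median was -0.56.

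**Figure D2:**
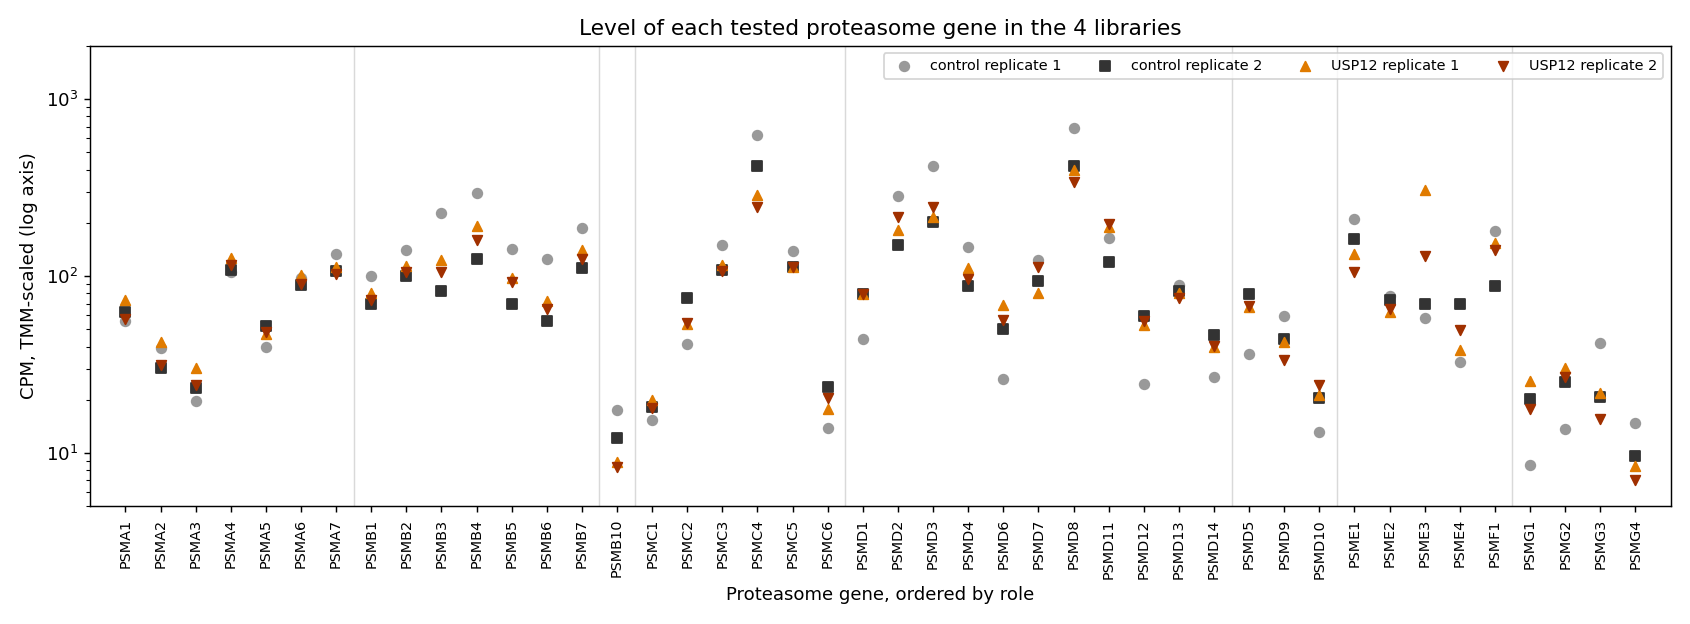
Level of each tested proteasome gene in CPM (log axis) against the gene, ordered by role; each symbol is 1 library, circles and squares for control replicates 1 and 2 and upward and downward triangles for USP12 replicates 1 and 2. With this TMM scaling both triangles lie between the circle and the square in PSMB1 to PSMB7 (in 5 of these 7 genes with total counts), whereas in PSME3 both lie above (308.6 and 129.6 CPM, against 57.7 and 69.3 CPM).

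**Figure D3:**
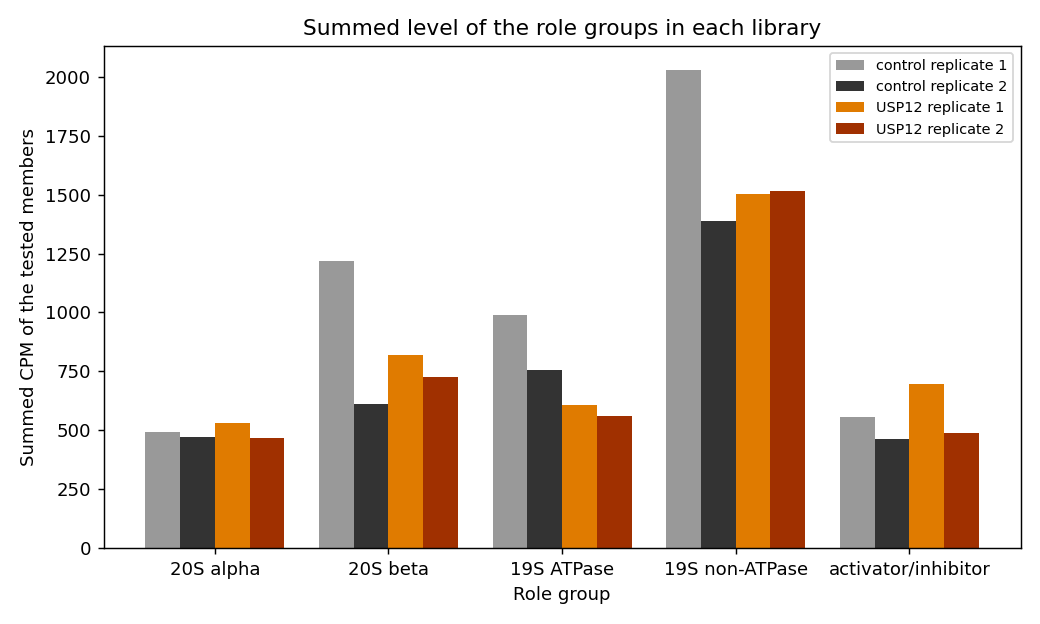
Summed CPM of the tested members of 5 role groups, with 1 bar per library and an axis that starts at 0. The beta ring runs from 613 to 1218 CPM between the control libraries, while the alpha ring stays between 468 and 533 CPM in all 4 libraries.

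The interferon-inducible members were lower in both USP12 libraries, a position held by 17% of all genes, and none passed the test. Of the other holders of the interferon-response motif, PSMG4 was also below the control libraries, PSMA4 was above them and PSMB4 lay between them. PSMB10 (chromosome 16, 67934506 to 67936864), which takes the place of PSMB7 in the immunoproteasome, had 17.5 and 12.2 CPM in control and 8.85 and 8.31 CPM in USP12 cells. Its log2 fold change was -0.79 with a standard error (SE) of 0.47 (adjusted p = 0.839 by edgeR's quasi-likelihood test). PSME1 (chromosome 14, 24136163 to 24138967), a subunit of the PA28 cap, had 211 and 162 CPM in control and 134 and 105 CPM in USP12 cells, a log2 fold change of -0.64 (SE 0.36, adjusted p = 0.834). PSME2, its partner in the same cap, lies 4.40 kb away and had 76.8 and 73.7 CPM in control and 63.0 and 65.2 CPM in USP12 cells. That difference of -0.23 (SE 0.35) was smaller than that of PSME1 as an estimate, and the 2 were not tested against each other. The values of the 3 genes stayed below 0 with each library left out, between -0.997 and -0.50 for PSMB10, -0.81 and -0.44 for PSME1, and -0.26 and -0.19 for PSME2. Without control replicate 2 they were -0.997 for PSMB10, -0.79 for PSME1 and -0.23 for PSME2. PSMB8 and PSMB9, the other immunoproteasome subunits, lie outside the 46 genes. PSMB8 had 51.2 and 41.6 CPM in control and 28.3 and 25.6 CPM in USP12 cells, and PSMB9 had 21.1 and 9.92 CPM against 6.19 and 5.96 CPM. PSME1 overlaps EMC9, and PSME2 overlaps RNF31, on the opposite strand. RNF31 itself had a log2 fold change of -1.11 with an SE of 0.49, and its part in the PSME2 value was not tested, since the sources used here do not say whether reads were counted by strand. PSMB11, the thymus-specific subunit, had 4 counts in control replicate 2 and 0 in the other libraries, and was not tested.

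PSME3 (chromosome 17, 42824385 to 42843760) encodes PA28 gamma, a nuclear cap that promotes degradation of substrates without ubiquitin. Its levels were 57.7 and 69.3 CPM in control and 309 and 130 CPM in USP12 cells. Both USP12 libraries were above both control libraries, but they differed from each other by 1.25 on the log2 scale, while the SD of that difference across members was 0.27. The log2 fold change was 1.79 (SE 0.50, 95% interval 0.56 to 3.01, unadjusted p = 0.0117, adjusted p = 0.382 by edgeR's quasi-likelihood test). It was 1.04 without USP12 replicate 1 (unadjusted p = 0.274) and 2.28 without USP12 replicate 2. With control replicate 1 as the only control library it was 1.95. The adjusted p of PSME3 passed 0.05 with the DESeq2 Wald test (0.0377) and in the unfiltered quasi-likelihood fit (0.00845). That unfiltered fit estimated an infinite prior and did not use the spread of single genes. The wide gap between the USP12 libraries of PSME3 therefore did not enter its p. The adjusted p stayed above 0.05 with edgeR's exact test (0.0535) and with the replicate block (0.0504). BECN1, which overlaps PSME3 on the opposite strand, had between 50.1 and 60.3 CPM in all 4 libraries.
PSME4, the PA200 activator, had 32.8 and 69.9 CPM in control and 38.4 and 49.7 CPM in USP12 cells. PSMF1, which encodes the inhibitor PI31, had 180 and 87.4 CPM in control and 154 and 141 CPM in USP12 cells. Both genes had their USP12 libraries between the control libraries, with log2 fold changes of -0.22 and 0.14.

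Among the 6 ATPases of the 19S base, PSMC4 (chromosome 19, 39971165 to 39981764) stood apart. It encodes the ATPase also called Rpt3, with 627 and 420 CPM in control and 289 and 247 CPM in USP12 cells, without overlap. The log2 fold change was -0.97 (SE 0.36, 95% interval -1.85 to -0.09, unadjusted p = 0.0359, adjusted p = 0.576 by edgeR's quasi-likelihood test). Leaving out control replicate 1 gave -0.65, and leaving out control replicate 2 gave -1.20. With either USP12 library left out it was -1.07 or -0.85, and the unadjusted p was then 0.234 or 0.328.
The other ATPases had log2 fold changes from -0.23 (PSMC3) to 0.18 (PSMC1). PSMC3 had 150 and 109 CPM in control and 115 and 107 CPM in USP12 cells, and PSMC5 had 139 and 112 CPM against 112 and 113 CPM. PSMC2 and PSMC6 were lower in control replicate 1 than in control replicate 2, at 41.1 against 75.0 CPM and at 13.8 against 23.8 CPM, with the USP12 libraries between.
The count of PSMC1 is uncertain. Its pseudogene PSMC1P1, a processed copy on chromosome 3, held between 80.4% and 84.1% of the fragments assigned to the pair. PSMC1 itself had 15.3 and 18.2 CPM in control and 19.9 and 18.0 CPM in USP12 cells. With the pseudogene's counts added, a choice made after seeing the data, the levels were 79.9, 114.4, 101.2 and 96.1 CPM in control 1, control 2, USP12 1 and USP12 2, and the log2 fold change went from 0.18 to 0.02. The other 28 pseudogenes of the family had at most 93 counts in any library.

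In the non-ATPase part of the cap, fold changes of the 11 genes had a log2 median of -0.13 and ranged from -0.57 to 0.71. PSMD8, a lid subunit and the member with the most fragments, had 683 and 418 CPM in control and 399 and 342 CPM in USP12 cells, a log2 fold change of -0.57 (SE 0.38, adjusted p = 0.869 by edgeR's quasi-likelihood test). PSMD13, another lid subunit, had 88.8 and 82.0 CPM against 80.3 and 75.4 CPM. In both genes the USP12 libraries lay below the control libraries, 2 of 11 genes, beside 17% of all genes. PSMD6 and PSMD11, also of the lid, were the 2 of 11 genes whose USP12 libraries lay above, beside 19.5% of all genes. PSMD6 had 26.2 and 50.4 CPM in control and 69.0 and 56.5 CPM in USP12 cells (log2 fold change 0.71, SE 0.46). That fold change became 0.32 without control replicate 1, and 1.29 without control replicate 2. PSMD11 had 164 and 120 CPM in control and 190 and 196 CPM in USP12 cells (0.44, SE 0.35). Neither passed the test with all 4 libraries.
PSMD14, the deubiquitinase that removes ubiquitin chains at the lid, had 26.9 and 46.4 CPM in control and 39.7 and 40.4 CPM in USP12 cells (log2 fold change 0.13, 95% interval -0.94 to 1.19). PSMD4, a ubiquitin receptor, had 146 and 88.3 CPM in control and 112 and 96.6 CPM in USP12 cells. PSMD2, a scaffold of the base, had 283 and 151 CPM in control and 182 and 215 CPM in USP12 cells, and PSMD3 had 419 and 201 CPM against 217 and 247 CPM. These genes again placed the USP12 libraries between the control libraries, PSMD3 and PSMD4 not so with total counts. PSMB4 and PSMD4, which lie 132 kb apart on chromosome 1, had log2 fold changes of -0.26 and -0.17.

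The assembly factors went in both directions. The 20S chaperones work as pairs, PSMG1 with PSMG2 and PSMG3 with PSMG4. PSMG1 had 8.55 and 20.2 CPM in control and 25.4 and 17.7 CPM in USP12 cells, and PSMG2 had 13.7 and 25.2 CPM against 30.2 and 26.7 CPM, with log2 fold changes of 0.58 and 0.55. PSMG3 had 42.1 and 20.8 CPM in control and 21.7 and 15.5 CPM in USP12 cells, and PSMG4 had 14.8 and 9.59 CPM against 8.49 and 7.06 CPM, with log2 fold changes of -0.75 and -0.65. The estimates had 1 sign within each pair and opposite signs between the pairs, while no gene of the 4 passed the test (standard errors from 0.48 to 0.56, smallest adjusted p = 0.878 by edgeR's quasi-likelihood test). Control replicate 1 was also the lowest library for PSMG1 and PSMG2 and the highest for PSMG3 and PSMG4. Without it, the 4 values in that order were 0.10, 0.18, -0.16 and -0.30. Leaving out control replicate 2 instead, with control replicate 1 as the only control library, gave 1.36, 1.08, -1.15 and -0.90. In the same order, the GC content of the canonical transcripts was 42.1%, 41.3%, 59.4% and 53.2%. The part of base composition in these values was not tested. Of the 19S chaperones, which escort the ATPases, PSMD10 (gankyrin) and PSMD5 had log2 fold changes of 0.44 and 0.22, and PSMD9 of -0.45.

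The gap between the control libraries was larger than the fold change with USP12 in 34 of 44 members (77.3%), beside 71.3% of all genes. Control replicate 1 was above control replicate 2 in 27 members and below it in 17, with a median log2 difference of 0.34 and an SD of 0.76, beside an SD of 0.27 between the USP12 libraries. With total counts these became 24, 20 and a median of 0.08, while the median over all genes went from -0.01 to -0.27. The largest gap upward was that of PSMB3, with 228 against 82.0 CPM (log2 difference 1.48), and the largest downward that of PSMD12, with 24.4 against 59.6 CPM (-1.28). Across the 44 members the gap went with the GC content of the canonical transcript (Pearson r = 0.76, Spearman rho = 0.79), more loosely with log2 transcript length (r = -0.35, rho = -0.38). Across 15094 genes the values were 0.55 and 0.60 for GC content, and -0.28 and -0.34 for length. Between the USP12 libraries, r with GC content was 0.16 across the members. These correlations are across genes measured in the same 2 libraries, and genes are not independent replicates. PSMB3 has a GC content of 53.4% and PSMD12 of 37.5%. Within the 20S core, GC content ran from 37.9% to 51.9% in the alpha ring and from 44.1% to 55.2% in the beta ring. The part of base composition in the USP12 comparison was not tested.

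**Figure D4:**
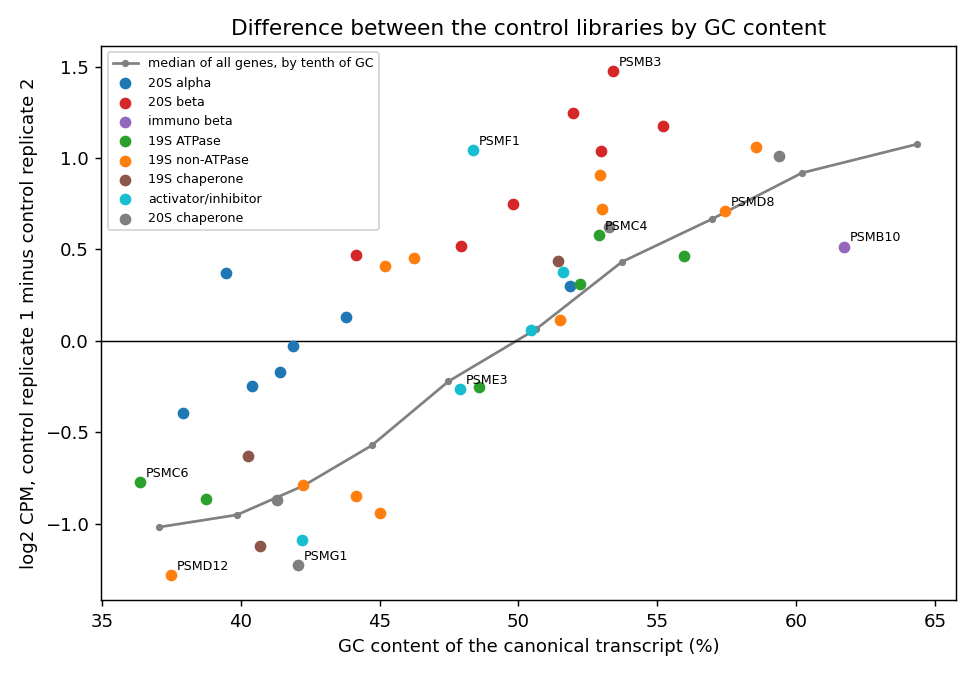
Log2 CPM of control replicate 1 minus control replicate 2 on the vertical axis against the GC content of the canonical transcript in percent, for the 44 tested members coloured by role; the grey line joins the medians of all genes in 10 bins of GC content. With TMM scaling, members with GC content above 50% lie above 0, and those with a GC content under 39% lie below it.

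Compared per length, the subunits of 1 particle had widely different transcript levels. On CPM per kb of merged exons, averaged over the 4 libraries, the 31 tested genes of the alpha and beta rings and the 19S cap ranged from 2.53 (PSMC6) to 155 (PSMC4), a ratio of 61.2. By library, that ratio was 133 and 55.4 in control cells, and 48.0 and 35.2 with USP12. PSMC4 was the highest in each, and the lowest was PSMC1 in control replicate 2 and PSMC6 in the other libraries. The order depends on the length used. On CPM per kb of the canonical transcript, PSMD8 was highest (303) and PSMC1 lowest (4.07). With the counts of PSMC1P1 added, PSMC1 came to 22.3 on that scale, PSMC6 was lowest (8.76), and the ratio went from 74.6 to 34.6. The beta ring was the most even of the large groups on the first scale, from 25.4 (PSMB2) to 115 CPM per kb (PSMB3). The alpha ring ran from 4.27 (PSMA2) to 65.0 (PSMA7), and the ATPases spanned the whole range of the core.

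Of 40 genes around the proteasome that lie outside the family, 3 were lower and 0 higher at an unadjusted p under 0.05 (edgeR's quasi-likelihood test). That was 7.5% of the list, against 7.59% of all genes in either direction (4.55% lower and 3.04% higher). None passed an adjusted p under 0.05 (0 of 40). Among 7 genes of transcriptional control, 2 were lower at that unadjusted p, beside 4.55% of all genes. NFE2L1, the activator of subunit genes, had 628 and 525 CPM in control and 277 and 349 CPM in USP12 cells, without overlap (log2 fold change -0.88, SE 0.33, unadjusted p = 0.0377, adjusted p = 0.585 by edgeR's quasi-likelihood test). The NFE2L1 value ranged from -1.05 (without USP12 replicate 2) to -0.71 (without USP12 replicate 1) with each library left out. MAFF, a small MAF protein that can pair with NFE2L1, had 79.1 and 25.0 CPM in control and 12.8 and 4.16 CPM in USP12 cells (log2 fold change -2.62, SE 0.80, adjusted p = 0.436). With 1 library left out its value ranged from -3.62 (without USP12 replicate 1) to -1.56 (without control replicate 1). The adjusted p of MAFF passed 0.05 by DESeq2's Wald test (0.00710), in the unfiltered fit (0.00100) and with the replicate block (0.00270). The unfiltered and block fits did not use the spread of single genes. By edgeR's exact test the adjusted p was 0.0609. MAFG was also lower in both USP12 libraries, at 77.2 and 64.0 CPM against 83.8 and 149 CPM. DDI2, the protease that releases active NFE2L1, had 1.51 and 29.98 CPM in control and 15.6 and 14.5 CPM in USP12 cells, so the control libraries lay on either side of both.
The third gene was PSMB9, with a log2 fold change of -1.35 (SE 0.55, adjusted p = 0.654 by edgeR's quasi-likelihood test). Leaving out control replicate 1 gave -0.71, and leaving out control replicate 2 gave -1.77. The unadjusted p of PSMB9, 0.0489 by edgeR's quasi-likelihood test, became 0.0593 with the replicate block. The 6 genes of antigen processing had a median of -0.83. PSMB9 overlaps TAP1 on the opposite strand. TAP1 had 69.2 and 55.4 CPM in control and 31.3 and 36.2 CPM in USP12 cells.
Fold changes of the 13 cofactors and assembly genes had a log2 median of -0.09. POMP, the maturation protein of the 20S core, had 40.2 and 34.4 CPM in control and 34.0 and 27.98 CPM in USP12 cells (log2 fold change -0.27, SE 0.40). ADRM1, a ubiquitin receptor of the cap, had 359 and 160 CPM against 210 and 178 CPM. Of the 14 ubiquitin genes and delivery factors, 7 had a lower and 7 a higher estimate, with a median of 0.01. UBB, a stress-responsive polyubiquitin gene, had 761 and 313 CPM in control and 412 and 376 CPM in USP12 cells, with the USP12 libraries between the control libraries.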

How the data were processed

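Stranded mRNA libraries of 4 A549 samples were sequenced. The authors trimmed adaptors and removed ribosomal RNA reads with Seqtk, mapped to GRCh38 with HISAT2 2.0.4 and counted uniquely mapped fragments per gene with StringTie 1.3.0, and the deposited values are these raw counts. Which annotation release was used, and whether reads were counted by strand, is not given in the sources used here, so overlapping genes are uncertain.

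All 15222 genes that passed filterByExpr entered 1 quasi-likelihood fit of edgeR 4.0.16 (R 4.3.3), with TMM factors, no covariate and Benjamini-Hochberg adjustment, and the rows of the members were read from that fit. CPM are scaled by the TMM factors, and log2 differences between libraries use a prior count of 2. The approximate standard error of a fold change is its size over the root of its F statistic, and 95% intervals use 6.15 degrees of freedom. Positions, lengths and GC content come from GENCODE (GRCh38), which held 99.2% of tested genes, and promoters from RefSeq.

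The members and lists were chosen with earlier results of these data known. Named were the members with an unadjusted p under 0.05, the 5 highest and 5 lowest fold changes, PSMB5, PSMB6, PSMB7, PSMB10, PSME1 and PSME2, and of the pathway genes those past that p with PSMB8, PSMB9, POMP and NFE2L1. Further genes were named after their values were seen. Alternatives were other scalings, filters and tests (DESeq2 1.42.0, edgeR exact test), a replicate block, and leaving out each library. Total counts ran from 14280081 to 16305356. Some genes of the lists are not reported here.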

Additional observations from a re-analysis of the deposited data

How the results depend on the processing

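Every alternative was planned except the sum of PSMC1 and PSMC1P1 and the order of the libraries under each scaling. The number of genes past an adjusted p under 0.05, 0 lower and 0 higher, was 361 and 167 with no low-count filter. It was 277 and 133 by DESeq2's Wald test, 262 and 167 by edgeR's exact test, and 251 and 153 when the replicate block was included. The number of members past it, 0 in each direction, became 1 higher (PSME3) without the filter and by DESeq2's Wald test. The median log2 fold change of the immunoproteasome and thymoproteasome group went from -0.79 to -2.33 without the filter, which added PSMB11. Under the replicate block, the members past an unadjusted p were again 1 lower and 1 higher, and their median log2 fold change was -0.09. Same-numbered libraries deviated together with a correlation of 0.15 across genes, in 2 pairs that share only a number, and that fit, like those with no filter or without a USP12 library, estimated an infinite prior, so that single genes' own spread did not enter.

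With 1 library left out, the lone library of a group is assumed to vary like the other group. The genes past the adjusted p then numbered from 28 to 2612 lower and from 12 to 2550 higher, and the members past it from 0 to 9 lower and from 0 to 7 higher, the upper ends without control replicate 2. At the unadjusted p, members numbered from 0 to 13 lower and from 0 to 9 higher, and pathway genes from 0 to 15 lower and from 0 to 13 higher. The members' median went from -0.25 without control replicate 2 to 0.054 without control replicate 1. By group, the medians ranged from -0.046 to 0.25 in the alpha ring, -0.56 to 0.31 in the beta ring, -0.997 to -0.50 for PSMB10, -0.15 to 0.029 in the ATPases, -0.16 to 0.066 in the other 19S genes, -0.21 to 0.82 in the 19S chaperones, -0.26 to -0.038 in the activators and -0.23 to 0.091 in the 20S chaperones. PSMB5, PSMB6 and PSMB7 changed direction without control replicate 1, ranging from -0.56 to 0.45, -0.84 to 0.31 and -0.46 to 0.26. The adjusted p of PSME3 ranged from 0.00845 to 1 over the alternatives. The summed level in USP12 cells relative to control was 0.887 with TMM, 0.872 with DESeq2's size factors and 0.874 with total counts.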
